A study of Mus musculus with 6 samples.

Results

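The MHC class II genes and Ciita comprised 10 genes: H2-Aa, H2-Ab1, H2-Eb1, H2-DMa, H2-DMb1, H2-DMb2, H2-Oa, H2-Ob, Cd74 and Ciita. Their peaks were those that overlapped the body of a member or, lying in no gene, had a member as the nearest protein-coding gene within 100 kb. This gave 59 of 97124 peaks, 39 in gene bodies and 20 between genes, and nearness says where a peak lies, not which gene it acts on. Open chromatin was mapped by ATAC-seq, which tags accessible DNA with a transposase, in B-cells from the bone marrow of PEtg mice. The quiescent group was H2B-GFP high and the proliferating group H2B-GFP low (3 samples each), and both carried PEtg and H2B-GFP, a fluorescent histone that cells lose by dilution as they divide. No source used here gives the transgene's promoter, the age of the mice, any pooling or whether the samples were separate mice, so a p-value measures the spread between samples, which may be technical.

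Class II molecules present peptides from engulfed or surface-bound antigen to CD4 T cells and are a property of B cells, dendritic cells and macrophages. H2-Aa, H2-Ab1 and H2-Eb1 encode chains of the presenting molecules, and Cd74 encodes the invariant chain, which blocks their groove until they reach the endosome. H2-DMa, H2-DMb1 and H2-DMb2 encode the chaperone that then loads peptide, and H2-Oa and H2-Ob encode its inhibitor. Their promoters share a module of X and Y boxes bound by the RFX complex, CREB and NF-Y, and the coactivator encoded by Ciita, which does not itself bind DNA, is recruited to it.

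RefSeq promoter windows of 300 bases (250 before and 50 after a start, build GRCm38.p6, the assembly behind mm10) were found for 7 of the 10 genes, 8 windows in all. The 6 stretches of 85 bases printed here were those with AAC 25 to 28 bases before ATTGG. That spacing was chosen after the sequences were seen, and the windows of H2-DMa did not hold it. Each is written 5′ to 3′ on the strand of the gene, and capitals mark the letters AAC and the Y-box core ATTGG.
H2-Oa (plus strand, chr17:34092266-34092350): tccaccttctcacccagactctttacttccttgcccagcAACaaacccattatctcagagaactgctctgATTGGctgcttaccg
H2-DMb2 (plus strand, chr17:34145089-34145173): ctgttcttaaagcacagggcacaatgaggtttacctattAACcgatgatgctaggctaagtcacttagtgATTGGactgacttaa
H2-DMb1 (plus strand, chr17:34153060-34153144): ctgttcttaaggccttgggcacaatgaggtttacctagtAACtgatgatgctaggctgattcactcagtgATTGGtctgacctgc
H2-Ob (plus strand, chr17:34238778-34238862): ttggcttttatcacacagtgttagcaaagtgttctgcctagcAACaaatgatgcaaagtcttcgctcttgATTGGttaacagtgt
H2-Aa (minus strand, chr17:34287857-34287941): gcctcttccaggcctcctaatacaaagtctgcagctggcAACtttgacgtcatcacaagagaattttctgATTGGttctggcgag
H2-Eb1 (plus strand, chr17:34305738-34305822): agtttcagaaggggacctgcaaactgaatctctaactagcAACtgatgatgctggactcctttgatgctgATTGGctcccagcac

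The Y-box core ATTGG was found on one strand or the other in 7 of the 8 windows and in 37.4% of 32851 windows of all genes. The looser X-box letters AGNNNCAG were found in 8 of 8 windows and in 69.1% of all windows. A pair of AGNNNCAG and ATTGG on one strand with 24 to 28 bases between them was found in 0 of the 8 windows and in 0.393% of all. A spacing chosen after the sequences were seen, AAC and then ATTGG with 25 to 28 bases between, was found in 6 of 8 windows and in 2.49% of all, and as it was chosen on these windows it is a description only. The letters GATGATG, also chosen afterwards, were in 3 of 8 windows (H2-DMb2, H2-DMb1 and H2-Eb1) and in 3.48% of all. AAC and ATTGG lay 28 bases apart in H2-Oa, H2-DMb2, H2-DMb1 and H2-Aa, 27 in H2-Eb1 and 25 in H2-Ob. The printed stretches of H2-DMb1 and H2-DMb2 were identical at 72 of 85 positions (84.7%), and the other pairs at 23.5% to 42.4%. Reads from such close copies may be divided uncertainly between them. Each of the 6 stretches lay within an ATAC-seq peak, so these stretches were in accessible chromatin.

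The deposited unit was a scaled signal. Reads in peaks, estimated from the steps of its low values, numbered 8053170 in proliferating sample 1, the fewest, and up to 48733844 in proliferating sample 3. The median member peak held 32 reads in proliferating sample 1 and 65 to 232 reads in the other samples. That shallowest library also stood lowest at these genes: the median deviation of a tested member peak from its mean over samples was −0.25 on the log2 scale, against −0.04 to 0.14 in the other libraries. In a bulk sample, fewer cells of a type and less open chromatin per cell cannot be told apart. All 10 B-cell markers had signal in all samples, and the strongest peak near Blnk, a B-cell receptor adaptor, ranked at the 99.8 percentile of all peaks.

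The 10 genes differed more from each other than between the groups. Summed over its peaks and given per kb of peak, signal fell into 3 bands that did not overlap in any of the 6 samples. H2-DMb1, Ciita, H2-Eb1, H2-DMa and H2-Aa lay between 87.95 and 249.1 per kb. H2-Ab1, H2-Oa and Cd74 lay between 301.6 and 520.8 per kb. H2-Ob and H2-DMb2 lay between 562.8 and 813.9 per kb. Within each band, genes next to each other in that order overlapped. The inhibitor gene H2-Ob and the chaperone gene H2-DMb2 were thus the most accessible per length, and H2-DMb1, the close copy of H2-DMb2, the least by its means, overlapping Ciita and H2-Eb1.

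**Figure D1:**
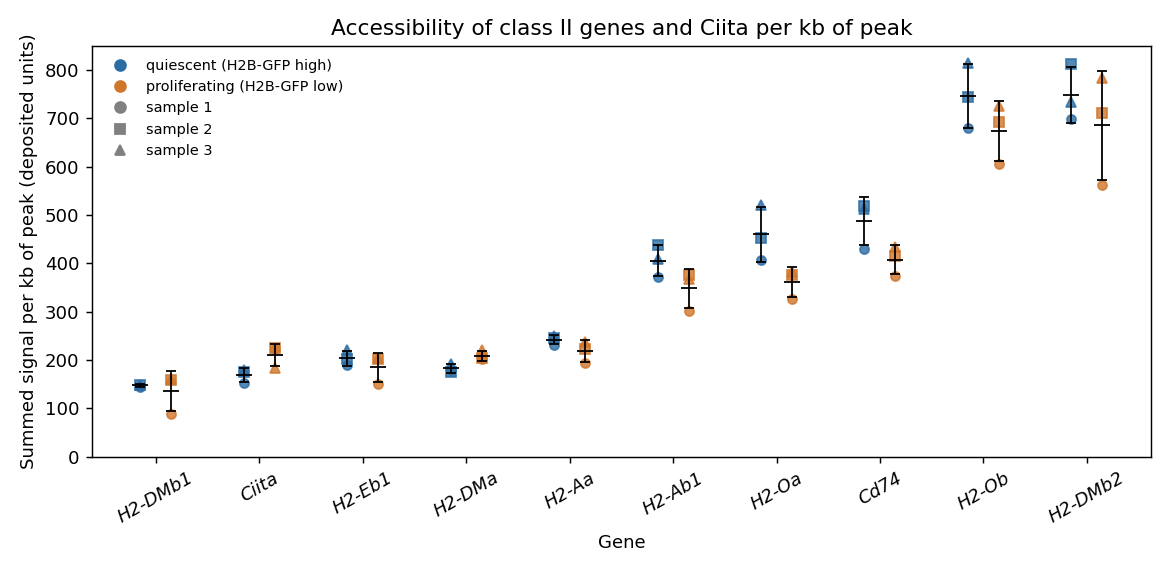
Summed signal per kb of peak (vertical axis, deposited units) for each gene, with 1 point per sample (circles, squares and triangles are samples 1, 2 and 3) and bars of mean ± SD, n = 3. H2-Ob and H2-DMb2 lie at or above 562.8 in every sample, and H2-DMb1 lies at or below 160.5.

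Between the groups, summed signal stood apart at 3 of the 10 genes on the deposited scale. The share over all genes was not computed, and at single peaks the groups stood apart at 30.4% of all those tested. H2-Oa had 406.8, 453.1 and 520.8 per kb in quiescent samples 1 to 3 and 326.7, 376 and 383 in proliferating samples 1 to 3. All quiescent values were above all proliferating values, with a log2 ratio of means of 0.35 (0.40 with estimated reads scaled to their totals). Ciita had 152.7, 175.3 and 179.3 against 222.4, 224.2 and 183.4 per kb, a log2 ratio of −0.31 (−0.47 with reads scaled to totals). H2-DMa had 180, 174.7 and 192.1 against 201.8, 203.1 and 219.6 per kb, a log2 ratio of −0.19 (−0.28 with reads scaled to totals). The groups overlapped at the other 7 genes, whose log2 ratios were 0.12 to 0.26. With reads scaled to totals the ratio turned negative at H2-Aa (−0.02), H2-Eb1 (−0.11) and H2-DMb1 (−0.16). That scaling lowered peaks in general: the median log2 fold change over all tested peaks was −0.26 (limma-voom), beside −0.01 on the deposited scale. Without proliferating sample 1 it was 0.01 at H2-Eb1, 0.00 at H2-DMb2 and −0.12 at H2-DMb1. Within same-numbered samples, 5 of these 7 genes (H2-Aa, H2-Ab1, H2-Eb1, H2-Ob and Cd74) were higher in the quiescent sample of all 3 pairs on the deposited scale. No test was run on these sums and no share over all genes was computed for the pairs either, so they are descriptions.

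Of the 59 peaks, 55 passed the filter on low signal, and the other 4 (1 each at Ciita, H2-Oa, H2-DMa and H2-Eb1) did not. By limma across all 87411 peaks tested, at an adjusted p under 0.05, 2 of the 55 were higher in quiescent cells (3.64%, background 4.01%) and 1 was lower (1.82%, background 2.72%), or 3 in all (5.45%, background 6.72%), so that neither share exceeded that of all peaks. These counts fell to 0 without quiescent sample 2 or 3, without proliferating sample 2 or 3, and without limma's intensity trend. Calls over all 87411 peaks fell too, from 5876 to 161 and 0 without quiescent sample 2 or 3. They were 790 and 1160 without proliferating sample 2 or 3, and 3247 without the trend. The loss of member calls in these fits is thus not particular to these genes. Log2 fold changes, quiescent minus proliferating, ran from −0.80 to 0.88 with a median SE of 0.24. Their median was 0.04, beside −0.01 over all peaks, and −0.24 beside −0.26 when estimated reads were scaled to totals. The groups did not overlap at 18 of the 55 peaks (32.7%, background 30.4%), 12 of them higher (background 15.4%) and 6 lower (background 14.9%). Same-numbered samples deviated together (correlations of 0.43, 0.285 and 0.21), but quiescent 2 with proliferating 3 reached 0.22, so numbers 2 and 3 were not told apart. A block on the replicate number thus rests on these values, not on the labels, and was not in the main fit. With that block 8 member peaks were higher (14.5%, background 10.2%) and 1 was lower (1.82%, background 8.14%). All 3 calls without the block were among these 9. By limma-voom on the estimated reads, TMM scaling gave 7 higher (12.7%, background 8.5%) and 0 lower (background 4.83%), and scaling to totals gave 2 higher (3.6%, background 5%) and 5 lower (9.1%, background 9.92%). The balance of higher and lower calls at these genes thus turned on the scaling.

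**Figure D2:**
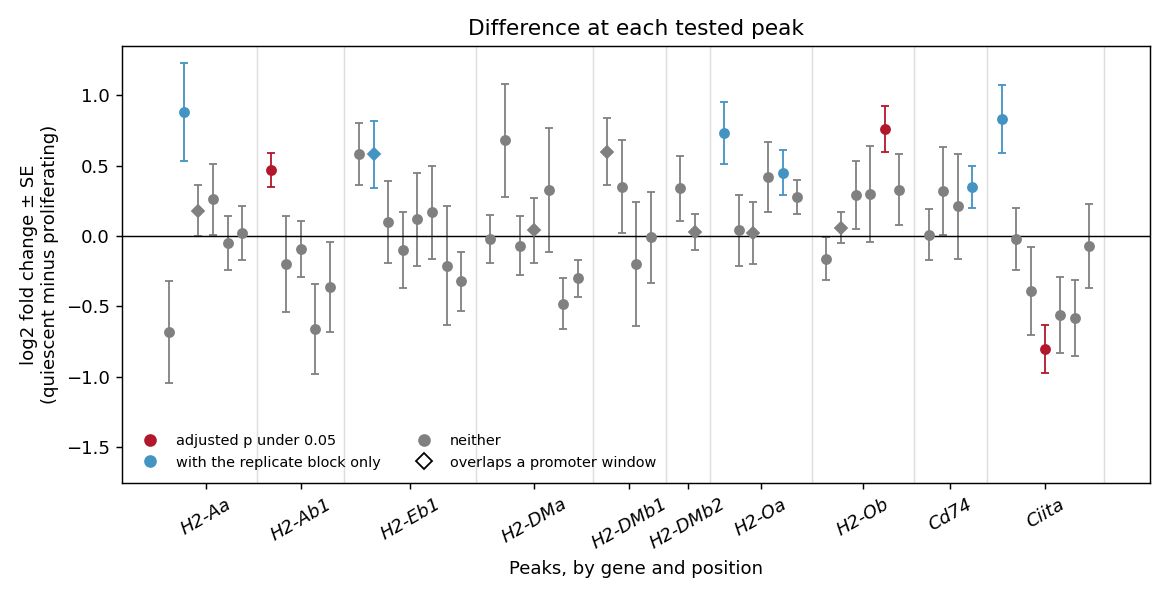
Log2 fold change ± SE (vertical axis, quiescent minus proliferating, limma) of the 55 tested peaks, grouped by gene and ordered by position, with limma calls in red, limma calls made only with the replicate block in blue and peaks at a promoter window as diamonds. Values run from −0.80 in Ciita to 0.88 in H2-Aa, and most peaks at H2-Ab1 and Ciita lie below 0 while those at H2-Oa lie above it on the deposited scale.

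The peak that fell in quiescent cells lay within Ciita, at chr16:10508627-10509731, 28613 bp from the lower-coordinate end of the gene. Its signal was 287.7, 270.9 and 293.1 in quiescent samples 1 to 3 and 529, 564.2 and 401.6 in proliferating samples 1 to 3. The groups did not overlap, and proliferating cells had 1.755 times the signal of quiescent cells (498.3 ± 85.59 against 283.9 ± 11.56, SD, n = 3 each). The log2 fold change was −0.80 ± 0.17 SE (limma adjusted p = 0.0304). The call was lost with estimated reads under TMM scaling (−0.59, limma-voom adjusted p = 0.064), without the intensity trend (limma adjusted p = 0.0767) and without quiescent sample 2 or 3 or proliferating sample 2 or 3, where limma adjusted p-values ran from 0.0509 to 0.13.

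Ciita held 8 peaks, all in its body, and they did not move as one. The peak nearest to the lower-coordinate end, chr16:10487638-10488338, had 142.8, 240.4 and 220.2 in quiescent samples and 120.5, 114.1 and 96.6 in proliferating samples. All 3 quiescent values were higher, and by limma it was called with the block (log2 fold change 0.83 ± 0.24 SE; adjusted p = 0.0734, and 0.0232 with the block). Limma-voom with TMM scaling called it too (0.84, adjusted p = 0.0453). Between and beyond these, the other 5 tested peaks had log2 fold changes of −0.58 to −0.02 and none was called, except that limma-voom with reads scaled to totals called the one at chr16:10515975-10516355 lower (−0.96, adjusted p = 0.0467). Without the called peak, summed signal at Ciita was 406, 525 and 521 in quiescent samples and 480, 454 and 431 in proliferating samples, which overlap (log2 ratio 0.09). Without both peaks it was 263, 284 and 301 against 360, 340 and 334, lower in all quiescent samples (log2 ratio −0.29). Both sums leave out peaks picked for their values and are descriptions. No promoter window of Ciita was matched, so which of these peaks lie at its alternative starts is not stated here.

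**Figure D3:**
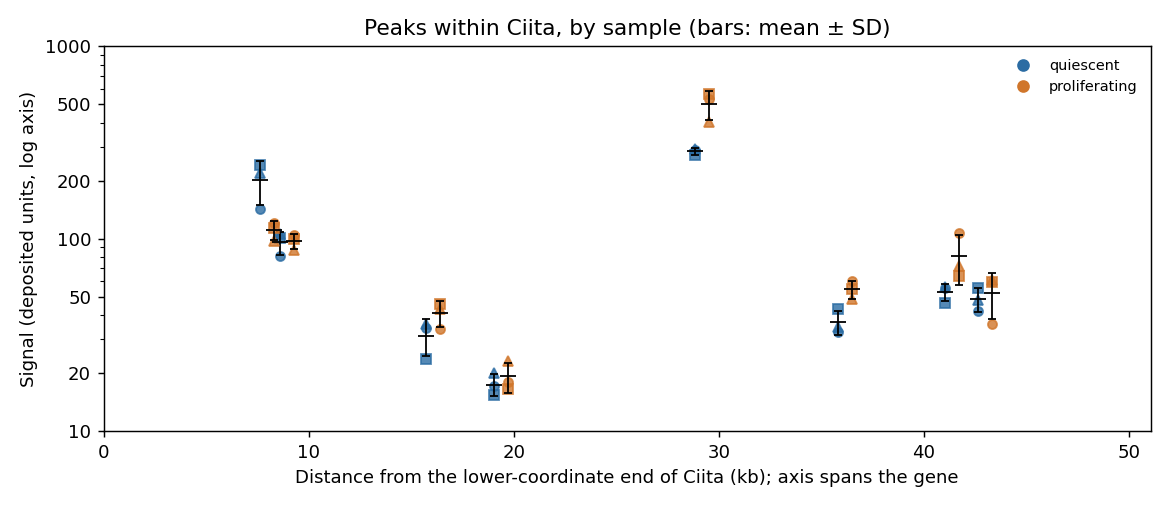
Signal of each peak within Ciita (vertical log axis, deposited units) against distance from its lower-coordinate end (kb), with 1 point per sample, bars of mean ± SD and the groups drawn side by side for legibility. Near 7.6 kb the quiescent samples lie above the proliferating samples, and near 28.6 kb they lie below them.

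Both peaks that rose in quiescent cells lay in the 17318 bp between H2-Ob and H2-Ab1. The first, chr17:34248360-34249531, lay 2452 bp beyond the higher-coordinate end of H2-Ob and was assigned to that inhibitor gene. Its signal was 703.5, 621.7 and 779.9 in quiescent samples and 360.2, 433.3 and 446.9 in proliferating samples. Every quiescent value exceeded every proliferating one, by a ratio of means of 1.697 (log2 fold change 0.76 ± 0.16 SE, limma adjusted p = 0.0253). The second, chr17:34257226-34258288, lay 4939 bp below the lower-coordinate end of H2-Ab1, which encodes a chain of the classical H2-A molecule. It had 1121, 1289 and 1231 against 830.8, 911.4 and 874, again without overlap, a ratio of 1.392 (log2 fold change 0.47 ± 0.12 SE, limma adjusted p = 0.0466). The H2-Ob call was lost without the intensity trend (limma adjusted p = 0.0768) and without quiescent sample 2 or 3 or proliferating sample 2 or 3 (from 0.0724 to 0.114). The H2-Ab1 call was lost in those fits (0.158 without the trend), without proliferating sample 1 (from 0.051 to 0.167 over the fits without a sample) and with quantile normalization (0.0522, limma adjusted p).

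The interval held 5 peaks, of which 4 had a log2 fold change above 0. Summed over them, signal was 2158, 2455 and 2428 in quiescent samples and 1466, 1762 and 1749 in proliferating samples, or 2347 ± 164 against 1659 ± 167 (SD, n = 3 each). The sums of the groups did not overlap, but the sum includes both calls. The interval was not among the planned comparisons and was taken up because both calls lie in it, so these values are a description.

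**Figure D4:**
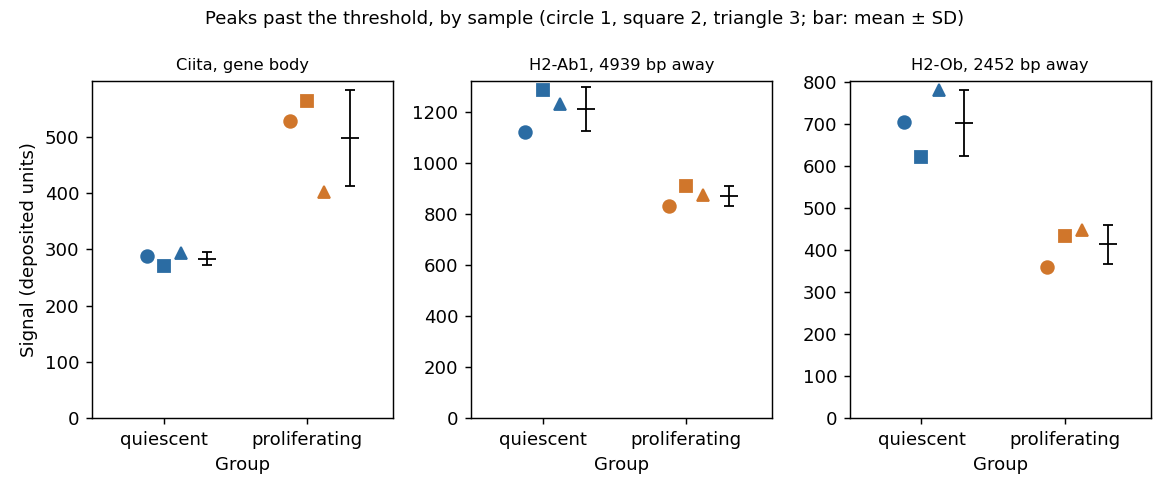
Signal (vertical axis from 0, deposited units) of the 3 peaks past the threshold, with 1 point per sample and mean ± SD beside them. Proliferating samples lie at 401.6 or more and quiescent samples at 293.1 or less at the Ciita peak, and the order is the opposite at the other peaks.

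Some markers of other cells that carry class II were higher in quiescent cells, as the H2-Ob and H2-Ab1 flank peaks were. Of 84 tested peaks of 15 macrophage, monocyte and dendritic cell markers, 17 were higher in quiescent cells (20.2%, background 4.01%) and 0 were lower by limma (2 at an unadjusted p under 0.05 and 2 with the block), with a median log2 fold change of 0.51. At 9 of the 15 genes a peak was called higher and at 6 none was called, among them Itgax, an integrin of dendritic cells, whose summed signal was 850.6, 973.9 and 1134 in quiescent samples and 949, 1804 and 1430 in proliferating samples. None of the 15 was at 0 in any sample. Summed signal over this list was 22700, 28190 and 28954 in quiescent samples and 19040, 20877 and 21576 in proliferating samples, so the groups did not overlap. An example was a peak within Zbtb46, a transcription factor of classical dendritic cells, with 188, 188.4 and 163.1 against 56.09, 41.61 and 64 (1.74 ± 0.23 SE, limma adjusted p = 0.00861). Leaving out quiescent sample 2 or 3 took the count of 17 to 0, leaving out proliferating sample 2 took it to 3 and proliferating sample 3 to 4, and fitting no trend took it to 7. Calls over all peaks also fell in those fits, in that order to 161, 0, 790, 1160 and 3247 of 87411. The part of such cells in the class II peaks was not tested.

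Of 172 tested peaks of 10 B-cell markers, 4 were higher (2.33%, background 4.01%) and 3 lower (1.74%, background 2.72%) by limma. Their median log2 fold change was 0.25, with 119 of 172 above 0, beside 43054 of 87411 over all peaks. At an unadjusted limma p under 0.05 there were 29 higher and 10 lower, beside 11495 and 9690 of all 87411. Of the 172, the groups did not overlap at 39 peaks higher (background 15.4%) and 14 lower (background 14.9%) in quiescent cells. Ebf1 held 130 of the 185 peaks of this list before the filter, and 3 of the 4 higher calls. The median and these counts thus describe that locus more than the other markers. The difference between this list and the macrophage, monocyte and dendritic list was not tested. Summed signal was 61604, 59075 and 62603 in quiescent samples and 55775, 63087 and 63142 in proliferating samples, which overlap. By gene, it was higher in all quiescent samples at Ebf1 and Rag1, and lower in all of them at Cd79b, Ms4a1 and Cd22. The groups overlapped at the other B-cell markers, and the share over all genes was not computed. With the block, 16 were higher and 8 lower (backgrounds 10.2% and 8.14%). A peak within Rag1, a recombinase gene of early B cells, was higher (436.8, 329.4 and 463.5 against 72.68, 158.9 and 142.6; log2 fold change 1.77 ± 0.30 SE, limma adjusted p = 0.0145). A peak 6173 bp from Ms4a1, which encodes the mature B-cell antigen CD20, was lower (130.6, 133 and 117.3 against 335.6, 281.8 and 208.6; −1.09 ± 0.21 SE, limma adjusted p = 0.0231).

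At the presenting chains H2-Aa, H2-Ab1 and H2-Eb1, 19 peaks were tested and the flank of H2-Ab1 held the only limma call without the block (background 6.72%). Limma-voom with reads scaled to totals called 2 further body peaks, both lower in quiescent cells: chr17:34267610-34268055 in H2-Ab1 (−1.11, adjusted p = 0.0449) and chr17:34285967-34286234 in H2-Aa (−1.21, adjusted p = 0.043). In that fit 9.92% of all tested peaks were called lower, and the median over all of them was −0.26. The H2-Aa promoter peak, chr17:34287674-34288152, had 175.6, 176.8 and 176.6 in quiescent samples and 139.3, 168.8 and 158.4 in proliferating samples. The quiescent samples were all higher, but the difference was not called (0.18 ± 0.18 SE, limma adjusted p = 0.574), and with reads scaled to totals it was −0.04. The peak next to it within H2-Aa, chr17:34286411-34287378, had 160.8, 202.4 and 167.9 against 50.85, 125.1 and 135.2. It had the largest log2 fold change of the 55 (0.88 ± 0.35 SE), was called with the block only (limma adjusted p = 0.166, and 0.0322 with the block), and was lowest in the shallow proliferating sample 1. The strongest H2-Aa peak, chr17:34293401-34294211, lay 5578 bp away, and its groups overlapped (197.5, 194 and 227.2 against 255.2, 177.2 and 215.3; limma adjusted p = 0.897).

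H2-Eb1 was most open at its promoter, chr17:34305579-34306021. Signal there was 221.3, 251.6 and 325.9 in quiescent samples and 129, 209.7 and 198.3 in proliferating samples, without overlap (0.58 ± 0.24 SE; limma adjusted p = 0.179, and 0.0383 with the block). The next peak below it, 577 bp from the gene, had 99.45, 96.16 and 126.4 against 74.4, 66.4 and 72.74, also without overlap and not called by limma (0.58 ± 0.22 SE, adjusted p = 0.149). The other 6 tested peaks of H2-Eb1 had log2 fold changes of −0.32 to 0.17. The peak over the lower-coordinate end of H2-Ab1, chr17:34262803-34264983, had 475.7, 516.1 and 521.4 against 395.2, 613.8 and 637.4, which overlap (−0.09 ± 0.20 SE).

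The chaperone genes H2-DMa, H2-DMb1 and H2-DMb2 held 0 calls among 13 tested peaks by limma with or without the block, and 3 at an unadjusted p under 0.05. Over all tested peaks, 6.72% were called, 18.3% with the block, and 24.2% had such an unadjusted p. Limma-voom on the estimated reads called 0 of the 13 with TMM scaling (backgrounds 8.5% higher and 4.83% lower). With scaling to totals it called 1, lower in quiescent cells and in the body of H2-DMa (background 9.92% lower). The strongest H2-DMb2 peak covered its promoter window, chr17:34144289-34145742, with 1184, 1453 and 1279 in quiescent samples and 1192, 1235 and 1418 in proliferating samples, which overlap (0.03 ± 0.13 SE, limma adjusted p = 0.929). The H2-DMb1 promoter peak, chr17:34152798-34153433, was much weaker, with 84.31, 97.34 and 76.99 against 47.39, 63.86 and 59.04. Its groups did not overlap, and it was not called (0.60 ± 0.24 SE, limma adjusted p = 0.167). The strongest H2-DMb1 peak lay 8845 bp from the gene and had 129, 161.7 and 149.4 against 85.7, 185.4 and 200.3, with the shallow proliferating sample 1 lowest and the other proliferating samples highest.

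All quiescent samples were lower at 2 of the 13 tested peaks of the chaperone genes (background 14.9%), and both lay in H2-DMa. Its strongest, chr17:34135097-34136155, had 559.9, 596.2 and 602.8 in quiescent samples and 778.5, 675.5 and 712.1 in proliferating samples (−0.30 ± 0.13 SE, limma adjusted p = 0.197). A second body peak, chr17:34129036-34129845, had 133.4, 130.7 and 139.7 against 176.8, 190.9 and 196.3 (−0.48 ± 0.18 SE, limma adjusted p = 0.135; −0.70 and 0.0357 with reads scaled to totals). Of the 8 peaks of H2-DMa, 4 also overlapped Brd2, a bromodomain gene, among them the one at an H2-DMa promoter window. That peak had 138.4, 123.5 and 173.8 against 112.4, 155.5 and 156.9, which overlap (0.04 ± 0.23 SE). Without the shared peaks, summed signal at H2-DMa was 723, 751 and 780 in quiescent samples and 978, 901 and 958 in proliferating samples, a log2 ratio of −0.33.

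Of the inhibitor genes, H2-Ob held the strongest peak of the class II genes at its promoter, chr17:34238263-34240557, at the 99.6 percentile of all peaks. It had 2990, 3285 and 3601 in quiescent samples and 2855, 3270 and 3311 in proliferating samples, which overlap (0.06 ± 0.11 SE, limma adjusted p = 0.762). With estimated reads under TMM scaling the same peak was called (0.44, limma-voom adjusted p = 0.0187). Its chromatin was thus open in both groups, 2990 or more in quiescent and 2855 or more in proliferating samples. The promoter peak of H2-Oa, chr17:34092168-34093057, was far weaker, with 95.55, 89.24 and 112.7 against 85.28, 98.7 and 108.6 (0.02 ± 0.22 SE on the deposited scale, −0.32 with reads scaled to totals).

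The signal of H2-Oa lay instead beyond its higher-coordinate end. The strongest peak, chr17:34101174-34103944, 5940 bp away, had 1517, 1666 and 1857 in quiescent samples and 1254, 1430 and 1466 in proliferating samples (0.28 ± 0.12 SE, limma adjusted p = 0.203; 0.57 and 0.0115 by limma-voom with TMM scaling). A peak at chr17:34096500-34098026, 1266 bp away, had 1048, 1247 and 1494 against 812, 979.9 and 963.2 (0.45 ± 0.16 SE; limma adjusted p = 0.119, 0.0169 with the block, and 0.0123 by limma-voom with TMM scaling). On the other side, a peak 12429 bp away had 112.1, 103 and 91.41 against 66.2, 57.74 and 59.56 (0.73 ± 0.22 SE; limma adjusted p = 0.0808, and 0.0436 with the block). The groups did not overlap at any of these 3 peaks, and the quiescent samples were higher at each.

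**Figure D5:**
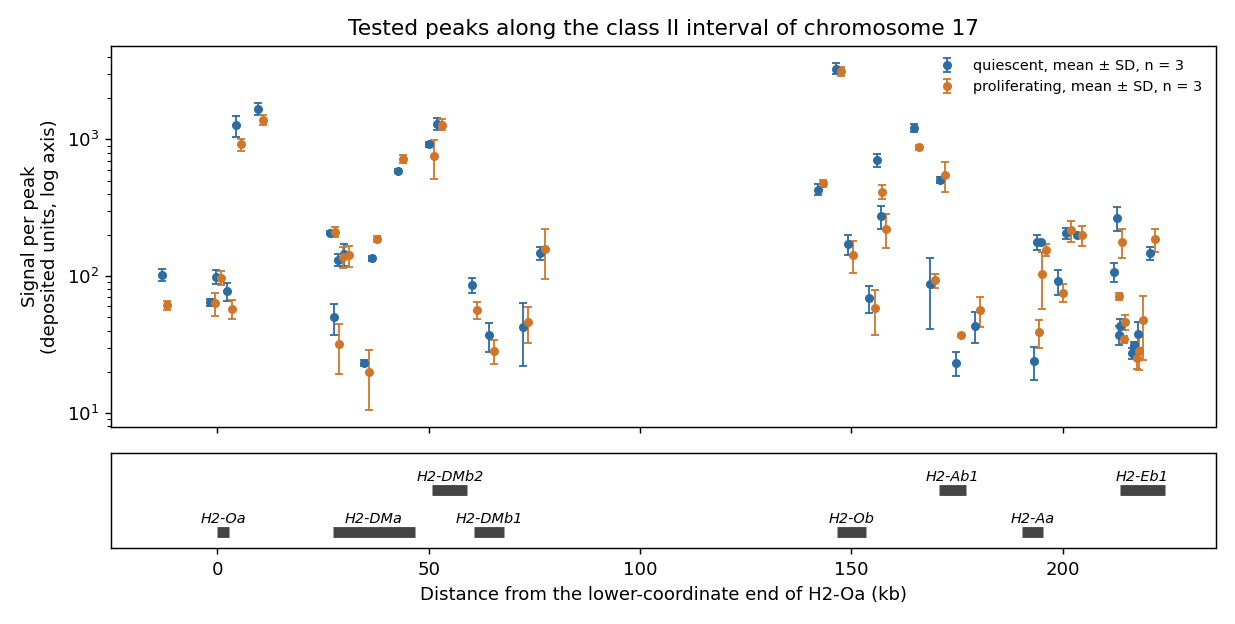
Signal of the 44 tested peaks on chromosome 17 (upper panel, vertical log axis, mean ± SD, n = 3) against distance from the lower-coordinate end of H2-Oa (kb), with the genes below and the groups drawn side by side. The strongest peak lies at the H2-Ob promoter. In the interval between H2-Ob and H2-Ab1, taken up because it holds both higher calls, 4 of the 5 peaks lie higher in quiescent samples.

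The invariant chain gene Cd74 had its strongest peak within the gene, chr18:60804856-60808045, the widest of the 59 at 3189 bp. It had 1487, 2014 and 1773 in quiescent samples and 1164, 1474 and 1509 in proliferating samples. Quiescent sample 1 lay below proliferating sample 3, so the groups overlapped, and by limma the peak was called with the block only (0.35 ± 0.15 SE; adjusted p = 0.203, and 0.0317 with the block). Limma-voom with TMM scaling also called it (0.61, adjusted p = 0.014). The other 3 peaks of Cd74 had log2 fold changes of 0.01 to 0.32.

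Over the class II promoters as a group, 7 tested peaks overlapped a promoter window, with log2 fold changes of 0.02 to 0.60 on the deposited scale. With reads scaled to totals, those of H2-Oa, H2-DMa and H2-Aa fell below 0, and the median over all tested peaks was −0.26. By limma 0 of the 7 were called (background 6.72%), and 2 had an unadjusted p under 0.05 (background 24.2% in either direction). With the block 1 was called (H2-Eb1, background 18.3%), and 1 by limma-voom with TMM scaling (H2-Ob, background 8.5% higher). Peaks between genes had a median log2 fold change of 0.26 (19 tested) and those in gene bodies 0.03 (36 tested). The difference between these classes was not tested.

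The genes from Psmb9 to Tap2, which serve class I presentation, lie among the class II genes on chromosome 17. With 5 kb flanks they held 10 tested peaks, with a median log2 fold change of 0.22. By limma 0 were called (background 6.72%), 2 had an unadjusted p under 0.05 (background 24.2%) and 1 was called with the block (background 18.3%). Limma-voom with TMM scaling called 1 (backgrounds 8.5% higher and 4.83% lower). Over 10 class I presentation genes, 1 of 46 tested peaks was higher (2.17%, background 4.01%) and 0 lower (background 2.72%). There were 0 lower also at an unadjusted p under 0.05 and with the block (background 8.14%), and 3 lower by limma-voom with reads scaled to totals (background 9.92%). The call lay within Nlrc5, the class I counterpart of Ciita, with 282.8, 440.2 and 528.9 in quiescent samples and 226.4, 173.3 and 213.2 in proliferating samples. All 3 quiescent values were higher (0.99 ± 0.24 SE, limma adjusted p = 0.0449), opposite in sign to the called peak of Ciita. The sign was the same as that of the Ciita peak at chr16:10487638-10488338 (0.83 ± 0.24 SE, limma adjusted p = 0.0734).

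Factors that bind class II promoters or regulate Ciita were called about as often as all peaks. Of 208 tested peaks of 16 genes, 9 were higher (4.33%, background 4.01%) and 4 lower (1.92%, background 2.72%), with a median log2 fold change of 0.04. With the block 19 of the 208 were higher and 12 lower (backgrounds 10.2% and 8.14%). Calls were higher only at 5 genes and lower only at 3, and 8 genes had none. A peak 60516 bp from Prdm1, a repressor of Ciita in plasma cells, rose from 102, 75.33 and 99.05 in proliferating samples to 314.3, 309.1 and 306.1 in quiescent samples (1.75 ± 0.19 SE, limma adjusted p = 0.00618). A peak within Irf8, a factor of B-cell and myeloid development, fell from 2646, 2518 and 2541 to 1524, 1349 and 1505 (−0.82 ± 0.10 SE, limma adjusted p = 0.00773). Neither peak overlapped between the groups.

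Genes of antigen processing and class II turnover held 5 higher calls (6.49%, background 4.01%) and 2 lower calls (2.6%, background 2.72%) among 77 tested peaks of 11 genes. With the block there were 15 and 7 (backgrounds 10.2% and 8.14%), with a median log2 fold change of 0.19. The peak 2333 bp from Ctss, the protease that trims the invariant chain, had 303.1, 368.1 and 269.8 in quiescent samples and 110.1, 112.3 and 120.9 in proliferating samples (1.44 ± 0.19 SE, limma adjusted p = 0.0082). A peak 95205 bp from Cd83, which slows the turnover of class II at the surface, had 176.6, 156.4 and 83.36 against 465.6, 389.2 and 296.3 (−1.51 ± 0.30 SE, limma adjusted p = 0.0231). The groups did not overlap at either peak, which lay on opposite sides of 0. Without quiescent sample 3, 0 of all 87411 peaks were called, so no call named in these lists could be kept in that fit. There, limma adjusted p-values were 0.0542 for the Prdm1, Irf8 and Ctss peaks, 0.0742 for Cd83 and 0.163 for Nlrc5. They were 0.0793 for Rag1, 0.1 for Ms4a1 and 0.0559 for Zbtb46. All but the Prdm1 call were also lost without quiescent sample 2 (0.0541 to 0.153, limma adjusted p), where 161 of all 87411 peaks were called. Those of Cd83, Nlrc5 and Ms4a1 were lost without proliferating sample 2 (0.0814 to 0.148), those of Cd83 and Nlrc5 without proliferating sample 3 (0.0534 and 0.115), and those of Irf8, Cd83, Nlrc5 and Ms4a1 without the trend (0.0503 to 0.0941).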

How the data were processed

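ATAC-seq was done on 3 quiescent and 3 proliferating samples. Libraries came from a commercial kit and were sequenced in 2 runs each, per the labels' protocols. Bowtie2, SAMtools, MACS2 and mm10 are named in the submitters' processing notes; for versions, the transposase offset and the scaling, no source used here gives a statement. For each of 97124 peaks, the authors deposited a scaled signal in every sample. Low values lay on steps that varied with peak strength, from which reads were estimated (in Python 3.11.15, numpy 2.4.6, pandas 2.3.3). From 99.6% to 100.0% of values of 1 to 1000 reads came within 0.1 of a whole number.

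Groups were compared by limma 3.58.1 under R 4.3.3, fitting log2(signal + 1) with a trend on intensity. The lowest 10% of peaks by mean were left out, and 87411 remained, with Benjamini-Hochberg adjustment over all of them and a threshold of 0.05. Fold changes are on that scale and understate changes of weak peaks. With 3 against 3 samples, an exact two-sided permutation test of a single value cannot go below 0.1, so none was run. The script was tested on simulated data. The deviations of same-numbered samples from their group means correlated at 0.43, 0.285 and 0.21 (Pearson, across peaks), each above 0.1. The numbers paired the samples only in the alternative fit with a replicate block and in the within-pair description of gene sums. That pairing comes from these values and not from the labels, and the main fit had no block. Quiescent 2 with proliferating 3 (0.22) and quiescent 3 with proliferating 2 (0.146) were also positive, so numbers 2 and 3 are not told apart by this check.

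Members and gene lists were chosen with earlier results of these data known. Named peaks were every call, the strongest peak and the promoter peak of each member, and the largest call in each direction per list among peaks of above-median signal. Peaks called with the block only, and others named without a call, were chosen after their values were seen. Alternatives were the pseudocount, the filter, quantile normalization, limma-voom on the estimated reads (TMM or totals), no trend, the replicate block, a 10 kb limit and leaving out each sample. Reads scaled to totals for gene sums were added after seeing the data. Genes and promoters came from RefSeq (GRCm38.p6). Plots used matplotlib 3.10.9.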

Additional observations from a re-analysis of the deposited data

How the results depend on the processing

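Pseudocounts of 0.5 and 8, no filter and a filter on the lowest 25% kept every count of calls at members, promoters and lists within 1.5 times its value, as did a 10 kb limit, run for member calls only. The cause of the changes given here was not tested. Member calls (2 higher, 1 lower) became 1 higher with quantile normalization, 7 higher and 0 lower with limma-voom and TMM, 5 lower with limma-voom on totals, 0 and 0 without the trend, and 8 higher with the replicate block, and ranged over 0 to 3 higher and 0 to 1 lower when each sample was left out. Without quiescent sample 3, 0 of all 87411 peaks were called, though 16512 had an unadjusted p under 0.05. Promoter peaks (0 higher) had 1 with TMM and 1 with the replicate block.

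For class II promoter factors (9 higher, 4 lower), higher calls were 14 with TMM, 19 with the replicate block and 0 to 11 leaving out samples, and lower calls 7 with TMM, 16 with totals, 1 without the trend, 12 with the block and 0 to 6 leaving out samples. For antigen processing (5 and 2), higher calls were 15 with TMM, 9 with totals, 2 without the trend, 15 with the replicate block and 0 to 11 leaving out samples, and lower calls 6 with totals, 1 without the trend, 7 with the block and 0 to 2 leaving out samples. For class I presentation (1 and 0), higher calls were 6 with TMM, 0 without the trend, 4 with the replicate block and 0 to 4 leaving out samples, and lower calls 3 with totals. For B-cell markers (4 and 3), higher calls were 2 with quantile normalization, 17 with TMM, 16 with the replicate block and 0 to 5 leaving out samples, and lower calls 6 with totals, 0 without the trend, 8 with the block and 0 to 4 leaving out samples. For macrophage, monocyte and dendritic cell markers (17 and 0), higher calls were 7 without the trend, 30 with the replicate block and 0 to 24 leaving out samples, and lower calls 1 with TMM, 2 with totals, 2 with the block and 0 to 1 leaving out samples. Calls over all 87411 tested peaks moved in these fits too. The shares higher and lower were 10.2% and 8.14% with the block, 8.5% and 4.83% with TMM, and 5% and 9.92% with totals.

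Uncalled peaks near 0 changed sign. The H2-Oa promoter peak went to −0.01 (quantile), −0.11 (TMM), −0.32 (totals) and −0.07 (without quiescent sample 3 or proliferating sample 1; up to 0.10 leaving out others), and the H2-DMa promoter peak to −0.05 (TMM), −0.25 (totals), −0.10 and −0.12 (without the same samples; up to 0.15). The H2-DMb2 promoter peak went to −0.05 and −0.02 (without quiescent sample 2 or proliferating sample 1; up to 0.10), that of H2-Ob to −0.00 (without quiescent sample 3 or proliferating sample 1; up to 0.13) and that of H2-Aa to −0.04 (totals). The strongest H2-DMb1 peak went to 0.08, 0.16 and 0.21 (without quiescent sample 1, proliferating sample 2 or 3; down to −0.40), and the strongest H2-Aa peak to 0.06 (TMM) and 0.07 (without proliferating sample 1; down to −0.19). Log2 ratios of summed signal moved by more than their spread only with reads scaled to totals, to −0.02 at H2-Aa, −0.11 at H2-Eb1, −0.28 at H2-DMa and −0.47 at Ciita. The median over all tested peaks moved with that scaling too, from −0.01 to −0.26 (limma-voom). Depth limits proliferating sample 1 most, where a tested member peak held as few as 5 reads.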
